A study of Macaca mulatta with 38 samples.

Results

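The 7 genes described here are used as markers of the dorsal midline of the developing forebrain. They comprise 4 transcription factors of the cortical hem and roof plate (LMX1A, OTX2, MSX1 and MSX2) and 3 products of the choroid plexus epithelium (TTR, FOLR1 and CLIC6). They were chosen by name as 7 of the 34619 genes of the deposited count table, and 6 of them were among the 20794 genes that passed the filter on low counts. FOLR1 did not pass and is given by its counts. The libraries came from rhesus macaque (Macaca mulatta) fetal cortical neural stem cells grown in culture, sampled by poly(A) RNA sequencing of whole wells. There were 38 libraries in 4 series, each series being the cortex of 1 age and region followed over days in vitro: E77 Frontal (10 libraries), E77 Occipital (10), E42 Anterior (9) and E42 Posterior (9), where E is the embryonic day of the tissue. Days 1, 3 and 5 with the growth factor FGF2 form the stem phase, days 6, 7 and 8 the transition, and days 11, 14, 17 and, at E77, 20 the terminal phase, the last 2 phases without FGF2. All cells were wild type, and after FGF2 was withdrawn the medium held B27, BDNF and NT-3 in every series.

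The cortical hem is a strip of neuroepithelium at the medial edge of the cortex that secretes WNT and BMP proteins and patterns the hippocampus. Next to it lies the choroid plexus, whose epithelium arises from the same midline under BMP signals and makes cerebrospinal fluid. In mouse, Lmx1a specifies hem and roof plate cells, Otx2 is required for the choroid plexus to form, and Msx1 and Msx2 are targets of BMP signalling. The MSX genes are also active in the mesenchyme of the head and meninges, OTX2 in the diencephalon, midbrain and eye, and LMX1A in the roof plate. None of the transcription factors thus marks the hem alone.

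The libraries held 20149635 to 56363300 counted reads each, with a median of 27597365.5. Levels are in CPM, counts per megaread of the tested genes with TMM scaling, and are given with the SD over libraries. Where groups of libraries are said not to overlap, the share of all genes without overlap was not counted. At these depths 3 counts in 1 library correspond to 0.0563 to 0.147 CPM (median 0.105), so most values of these genes rest on few reads. Log2 fold changes carry a standard error (SE) and come from edgeR's quasi-likelihood test with Benjamini-Hochberg adjustment over 20794 genes and a threshold of 0.05. Nothing in the labels ties the libraries of 1 group to different fetuses, so p-values measure no spread between fetuses. For phases they measure the spread between days of a culture. For region and age the model held the day as a block, so they measure the spread left after shared day differences. Age and region cannot be told apart from the fetus used or the culture it gave. In bulk samples fewer cells of a type and less RNA per cell cannot be told apart either.

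MSX1 was the member with the highest level, and that level was reached in E42 Anterior. There it had 39.6, 43.3 and 39.7 CPM on days 1, 3 and 5, 27.8, 23.5 and 20.0 CPM on days 6, 7 and 8, and 22.5, 26.8 and 33.7 CPM on days 11, 14 and 17. These values rest on 532 to 1434 counts per library. Elsewhere MSX1 had a median of 0.456 CPM in E77 Frontal (0.0425 to 1.16), 0.287 CPM in E77 Occipital (0.116 to 0.828) and 0.371 CPM in E42 Posterior (0.0491 to 0.728). The lowest E42 Anterior library therefore lay above the highest library of every other series. Per length, MSX1 averaged 18.2 ± 4.62 RPKM in E42 Anterior (n = 9), a level exceeded by 11.2% of the genes in the table.

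The other transcription factors were lower but were also highest in E42 Anterior. OTX2 had 3.77, 2.69, 3.33, 4.25, 4.81, 3.26, 4.08, 3.68 and 4.31 CPM on the 9 days of that series. It had a median of 0.631 CPM in E77 Frontal (0.110 to 1.78) and of 1.24 CPM in E42 Posterior (0.573 to 1.44). In E77 Occipital it had 5 counts in 10 libraries, with 6 libraries at 0. OTX2 thus set E77 Occipital apart from the other 3 series, and the E42 Anterior libraries did not overlap those of any other series. MSX2, the paralogue of MSX1, ranged from 0.745 to 2.50 CPM in E42 Anterior (median 1.30, 25 to 89 counts). It had at most 4 counts per library in E77 Frontal, 4 in E77 Occipital and 5 in E42 Posterior, so E42 Anterior again did not overlap the others.

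LMX1A was the transcription factor whose level depended most on single days. In E42 Anterior it had 0.830, 0.212 and 0.393 CPM on days 1, 3 and 5, then 1.69 and 3.17 CPM on days 6 and 7 (59 and 110 counts), and 0.600, 0.864, 0.545 and 0.692 CPM on days 8, 11, 14 and 17. In the other 3 series the highest LMX1A level fell on day 1, with 0.372 CPM in E77 Frontal (9 counts), 0.978 CPM in E77 Occipital (25 counts) and 1.37 CPM in E42 Posterior (49 counts). After day 1 the E77 Frontal libraries had at most 5 counts and the E77 Occipital libraries at most 4, whereas the E42 Posterior libraries had 8 to 20. Annotation places 2 long non-coding RNA genes over LMX1A, LOC106994934 and LOC106994937, which had at most 0 and 1 counts in any library.

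The choroid plexus products were near the limit of detection in most libraries. TTR, the carrier of thyroxine in cerebrospinal fluid, had 0.735, 1.33, 0.393, 0.746, 0.144, 0.563, 0.149, 0.244 and 0.157 CPM on the 9 days of E42 Anterior, from 5 to 44 counts. It had 1 count in the 10 E77 Frontal libraries, 0 in the 10 E77 Occipital libraries and 12 in the 9 E42 Posterior libraries. Its highest level per length was 1.72 RPKM, on day 3 of E42 Anterior. FOLR1, the folate receptor that carries folate across the choroid plexus, had 22 counts in all: 9 in E77 Frontal, 9 in E77 Occipital, 4 in E42 Anterior and 0 in E42 Posterior, with at most 5 in any library.

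CLIC6, which encodes a protein of the chloride intracellular channel family, was the member that was highest in E42 Posterior. It had 1.43, 1.08, 1.05, 0.990, 1.24, 1.29, 1.31, 1.03 and 0.934 CPM on the 9 days there (21 to 51 counts). In E42 Anterior it ranged from 0.0302 to 0.566 CPM with a median of 0.338, without overlap. In E77 Frontal 18 of its 23 counts came from day 1, and in the 10 E77 Occipital libraries it had 0 counts, which allows a mean of up to 0.0110 CPM over that series.

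**Figure D1:**
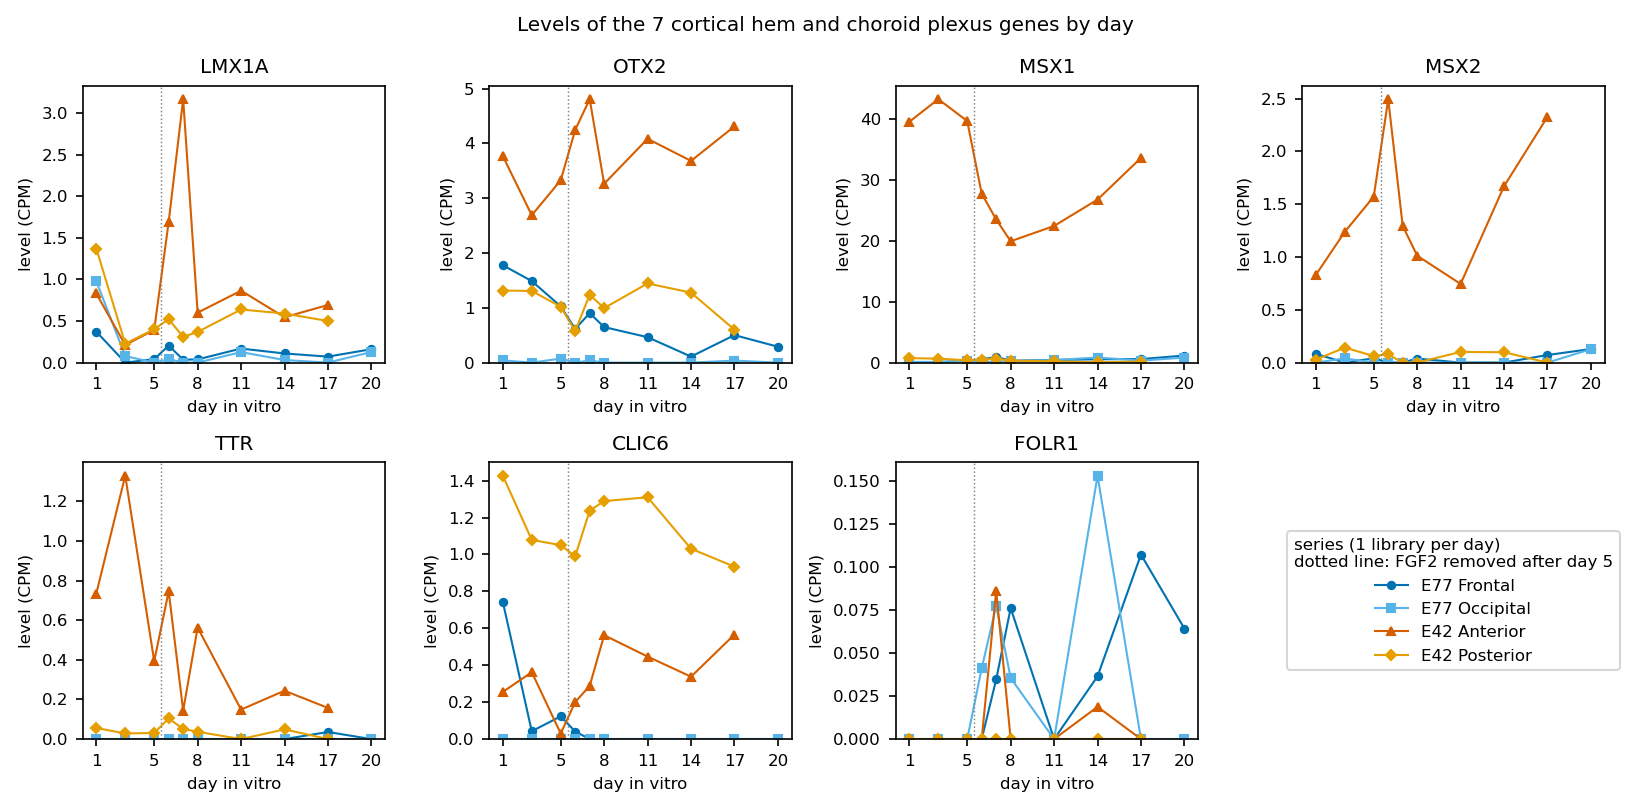
Level of each of the 7 genes (CPM, vertical axis, a separate scale for each gene) against day in vitro, with 1 point per library, lines joining the days of a series and a dotted line where FGF2 was removed. E42 Anterior lies above the other series on every day for OTX2, MSX1 and MSX2, E42 Posterior lies above the others for CLIC6, and LMX1A reaches its highest value, 3.17 CPM, on day 7 of E42 Anterior.

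The order of the mean levels over a series differed between members. For MSX1 it was E42 Anterior (30.8 ± 8.57 CPM), E77 Frontal (0.493 ± 0.346), E42 Posterior (0.404 ± 0.240) and E77 Occipital (0.345 ± 0.276), and the last 3 overlapped widely. For OTX2 it was E42 Anterior (3.80 ± 0.64 CPM), E42 Posterior (1.09 ± 0.32), E77 Frontal (0.782 ± 0.525) and E77 Occipital (0.0187 ± 0.0261), with overlap between E42 Posterior and E77 Frontal. LMX1A was ordered E42 Anterior (0.999 ± 0.913 CPM), E42 Posterior (0.547 ± 0.336), E77 Occipital (0.138 ± 0.299) and E77 Frontal (0.120 ± 0.111), and each neighbour overlapped the next. CLIC6 was ordered E42 Posterior (1.15 ± 0.17 CPM), E42 Anterior (0.339 ± 0.172), E77 Frontal (0.0950 ± 0.231) and E77 Occipital (0). The SD values here include differences between days (n = 9 at E42 and 10 at E77).

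The labels were checked against other genes of the hem and the choroid plexus. The 12 cortical progenitor genes listed were detected in every series, with a median summed level of 5278 CPM in E77 Frontal, 4570 in E77 Occipital, 5210 in E42 Anterior and 5451 in E42 Posterior. The sum is carried by the most abundant genes of the list and does not measure the share of progenitors. Taken singly, most of the 12 were lower in E42 Anterior than in E42 Posterior. The choroid plexus list was mixed. The tight junction gene CLDN3 had at most 3 counts and the serotonin receptor gene HTR2C at most 13 in any library, beside the low counts of TTR and FOLR1. KCNJ13, a potassium channel gene of the choroid plexus, averaged 12.9 CPM in E77 Frontal, 9.86 in E77 Occipital, 1.82 in E42 Anterior and 2.10 in E42 Posterior. PLTP, a phospholipid transfer gene, averaged 191, 118, 163 and 87.1 CPM in the same order. WFIKKN2 and SLC13A4 were expressed mainly in E42 Anterior (22.7 and 5.72 CPM). Whether any cells of these cultures were choroid plexus epithelium was not tested, and the 3 product genes are described by name.

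Genes of hem signals differed in the series where they were highest. WNT3A, a WNT ligand of the hem, averaged 0.132 CPM in E77 Frontal, 0.170 in E77 Occipital, 0.306 in E42 Anterior and 1.16 in E42 Posterior. WNT8B, a WNT ligand of the medial cortex, averaged 0.132, 0.137, 0.627 and 2.28 CPM in the same order of series, and RSPO3, a secreted enhancer of WNT signalling, 0.0193, 0.0111, 1.69 and 10.1 CPM. These 3 genes followed the order of CLIC6 at E42, higher in E42 Posterior. BMP4, a BMP ligand of the dorsal midline, was instead highest in E42 Anterior, at 2.45, 6.74, 21.8 and 0.410 CPM in that order of series, as were WNT2B (0.0637, 0.0469, 3.39 and 0.485 CPM) and the zinc finger gene ZIC4 (9.62, 2.71, 75.8 and 3.34 CPM).

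**Figure D2:**
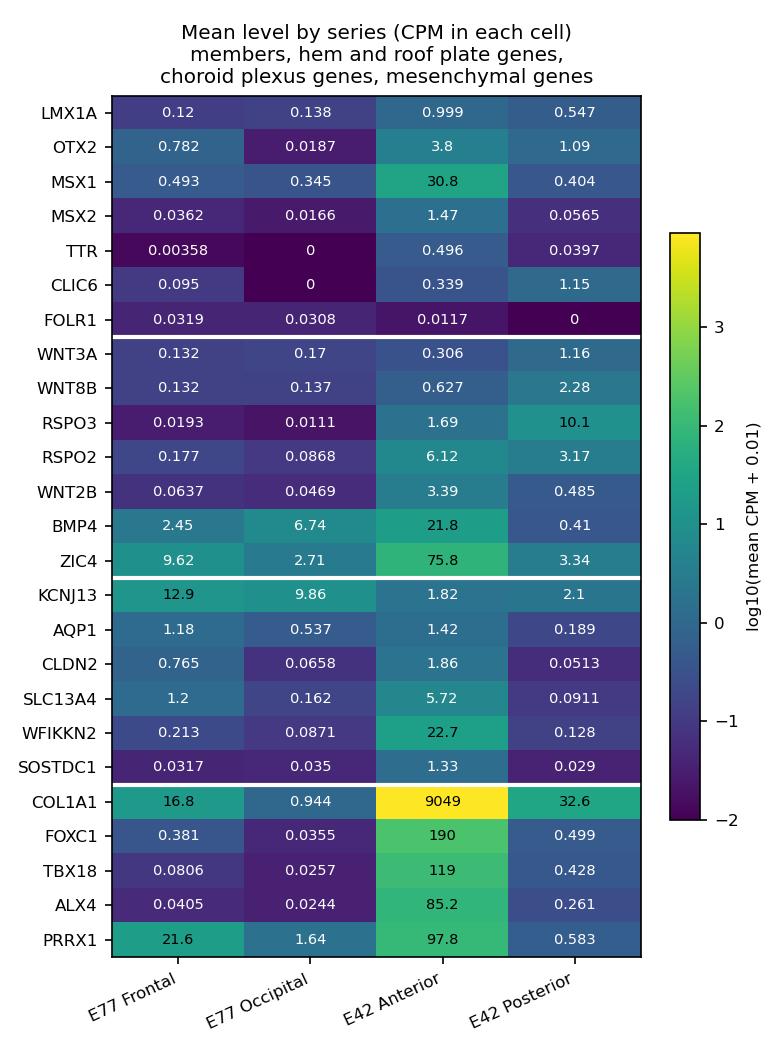
Mean level of the 7 genes and of selected hem and roof plate, choroid plexus and mesenchymal genes in each series, printed in CPM in each cell and coloured on a log10 scale of CPM + 0.01 (n = 10 libraries for E77 series and 9 for E42 series). WNT3A, WNT8B, RSPO3 and CLIC6 are highest in E42 Posterior, and MSX1, MSX2, TTR and the mesenchymal genes, among them COL1A1 at 9049 CPM, in E42 Anterior.

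Between the ages, all 6 tested members were lower at E77 than at E42 when both regions and all phases were averaged with equal weight, against 38.4% of tested genes called lower. LMX1A averaged 0.132 CPM at E77 and 0.773 CPM at E42 (log2 fold change -3.01 ± 0.31 SE, adjusted p = 2.51e-09, edgeR). OTX2 averaged 0.425 CPM at E77 and 2.44 CPM at E42 (-4.02 ± 0.22, adjusted p = 1.12e-14, edgeR). MSX1 averaged 0.395 CPM at E77 and 15.6 CPM at E42 (-3.39 ± 0.25, adjusted p = 7.2e-12, edgeR). For MSX2, TTR and CLIC6 at least 1 phase of a series had 0 counts, so no fold change is given. Their adjusted p-values were 1.29e-06, 0.000114 and 1.08e-08. Without day 6 of E42 Posterior, which held the 3 transition counts of MSX2 there, or day 14, which held the 1 terminal count of TTR, a phase of that series was at 0. The mean over phases could then not be estimated and the adjusted p was 1, which says nothing about the size of the difference.

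Split by region, the age difference held for all 6 members between E77 Frontal and E42 Anterior, where 33.6% of tested genes were called lower. The log2 fold changes were -3.00 ± 0.39 for LMX1A, -2.40 ± 0.20 for OTX2, -6.30 ± 0.20 for MSX1 and -5.85 ± 0.47 for MSX2. TTR (adjusted p = 7.23e-07, edgeR) and CLIC6 (adjusted p = 0.000203, edgeR) had phases at 0 in E77 Frontal. Between E77 Occipital and E42 Posterior 5 members were lower, against 32.9% of tested genes. LMX1A differed by -3.03 ± 0.46 and OTX2 by -5.64 ± 0.39 on the log2 scale. CLIC6 had 0 counts in E77 Occipital and 332 counts in E42 Posterior (adjusted p = 2.31e-08, edgeR). With E77 Occipital set at a floor of 3 counts over the group, E42 Posterior was 105-fold higher. Such ratios, here and below, take the counts of the higher group as exact, so they are not strict lower bounds. TTR had 0 counts in E77 Occipital and 12 in E42 Posterior (3.79-fold higher in E42 Posterior at that floor, adjusted p = 0.0165, edgeR). MSX2 had 5 counts in E77 Occipital and 16 in E42 Posterior (adjusted p = 0.0198, edgeR). Both of these contrasts could likewise not be estimated without day 14 (TTR) or day 6 (MSX2) of E42 Posterior. MSX1 was the exception, at 0.317 CPM in E77 Occipital and 0.404 CPM in E42 Posterior with phases weighted equally (-0.48 ± 0.33, adjusted p = 0.214, edgeR). The age difference of MSX1 was thus called in the Frontal and Anterior pair and not in the Occipital and Posterior pair, and the difference between the pairs was not tested.

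The 19 tested genes of the other hem and roof plate list also moved mainly downwards with age: 15 were lower and 3 higher at E77 (median log2 -1.63, against -0.03 over all genes). RSPO2 averaged 0.134 CPM at E77 and 4.65 CPM at E42 (-4.87 ± 0.26), and WNT2B 0.0547 CPM at E77 and 1.94 CPM at E42 (-4.51 ± 0.29). The 22 tested genes of the other choroid plexus list were divided, 9 higher and 8 lower at E77. Of all tested genes 38.4% were called lower, and 15018 of 20794 in either direction. KCNJ13 was higher at E77 (11.3 CPM against 1.96 CPM at E42, 2.61 ± 0.12). The prolactin receptor gene PRLR was lower (0.399 CPM at E77 against 3.45 CPM at E42, -3.13 ± 0.30).

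At E42, region divided the members: 4 were higher in E42 Anterior than in E42 Posterior (MSX1, MSX2, TTR and OTX2, against 25.1% of tested genes called higher) and 1 was lower (CLIC6, against 30.3% called lower). The members' median log2 fold change was 2.64, and that of all tested genes -0.06. MSX1 had 30.8 CPM in E42 Anterior and 0.404 CPM in E42 Posterior (6.39 ± 0.20, adjusted p = 4.61e-19, edgeR). MSX2 had 1.47 CPM in E42 Anterior and 0.0565 CPM in E42 Posterior (4.69 ± 0.40, adjusted p = 5.54e-10, edgeR). TTR had 0.496 CPM in E42 Anterior and 0.0397 CPM in E42 Posterior (3.46 ± 0.44, adjusted p = 7.69e-06, edgeR). OTX2 had 3.80 CPM in E42 Anterior and 1.09 CPM in E42 Posterior (1.83 ± 0.19, adjusted p = 6.97e-09, edgeR). For these 4 genes the 9 libraries of E42 Anterior did not overlap the 9 of E42 Posterior. The share of all tested genes without overlap was not counted, so it cannot be said whether this is particular to the members. CLIC6 had 0.339 CPM in E42 Anterior and 1.15 CPM in E42 Posterior (-1.87 ± 0.33, adjusted p = 0.000118, edgeR).

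LMX1A did not pass between the E42 regions (0.999 CPM in E42 Anterior and 0.547 CPM in E42 Posterior, 0.67 ± 0.31, adjusted p = 0.0644, edgeR). It was close to the threshold, and the adjusted p ranged from 0.0185 to 0.293 when single libraries were left out, with the call gained without day 1, 6 or 8 of E42 Anterior or day 8 of E42 Posterior. Within the stem phase 5 members differed between E42 Anterior and E42 Posterior, where 35.5% of tested genes were called. Within the terminal phase 4 did, where 35.8% were called, CLIC6 having passed in the stem phase only (terminal 0.450 CPM in E42 Anterior and 1.09 CPM in E42 Posterior, -1.28 ± 0.54, adjusted p = 0.0767, edgeR). Its terminal libraries did not overlap, and it passed with only the libraries compared (adjusted p = 0.0178, edgeR) and with limma on log2(RPKM + 0.1) without a filter (adjusted p = 0.00359). TTR passed in the terminal phase (adjusted p = 0.0141, edgeR) on 23 counts in E42 Anterior and 1 in E42 Posterior. That call was lost without day 11 or 14 of E42 Anterior or day 11 or 17 of E42 Posterior, with adjusted p-values up to 0.0799.

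The members that were higher in E42 Anterior were accompanied by higher levels of genes of mesenchymal and meningeal cells. All 19 such genes were higher in E42 Anterior than in E42 Posterior, with a median log2 fold change of 7.54, against 25.1% of tested genes called higher. Their summed level ranged from 14834 to 40986 CPM in E42 Anterior, against 313 to 650 CPM in E77 Frontal, 656 to 1821 in E77 Occipital and 131 to 522 in E42 Posterior. COL1A1, a fibroblast collagen gene, averaged 16.8 CPM in E77 Frontal, 0.944 in E77 Occipital, 9049 in E42 Anterior and 32.6 in E42 Posterior. ALX4, a transcription factor of head mesenchyme, averaged 0.0405 CPM in E77 Frontal, 0.0244 in E77 Occipital, 85.2 in E42 Anterior and 0.261 in E42 Posterior. At E77 most of the sum came from PDGFRA, a gene that oligodendrocyte precursors also use (374 CPM in E77 Frontal and 925 CPM in E77 Occipital). The part of mesenchymal cells in the E42 Anterior levels of MSX1, MSX2, TTR and OTX2 was not tested.

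Within E42 Anterior the sum was 18755, 31147 and 40986 CPM on days 1, 3 and 5, 24331, 14834 and 20582 CPM on days 6, 7 and 8, and 17663, 25697 and 27787 CPM on days 11, 14 and 17. Its phase means were 30296 CPM in the stem phase, 19916 CPM in the transition and 23716 CPM in the terminal phase, and those of MSX1 were 40.9, 23.8 and 27.7 CPM in the same order. Both were highest in the stem phase and lowest in the transition. In the same order, MSX2 (1.21, 1.60 and 1.58 CPM) and OTX2 (3.26, 4.11 and 4.02 CPM) were lowest in the stem phase. TTR (0.819, 0.484 and 0.183 CPM) was lowest in the terminal phase. Over days 1, 3 and 5 the sum rose each day, while MSX1 had 39.6, 43.3 and 39.7 CPM.

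**Figure D3:**
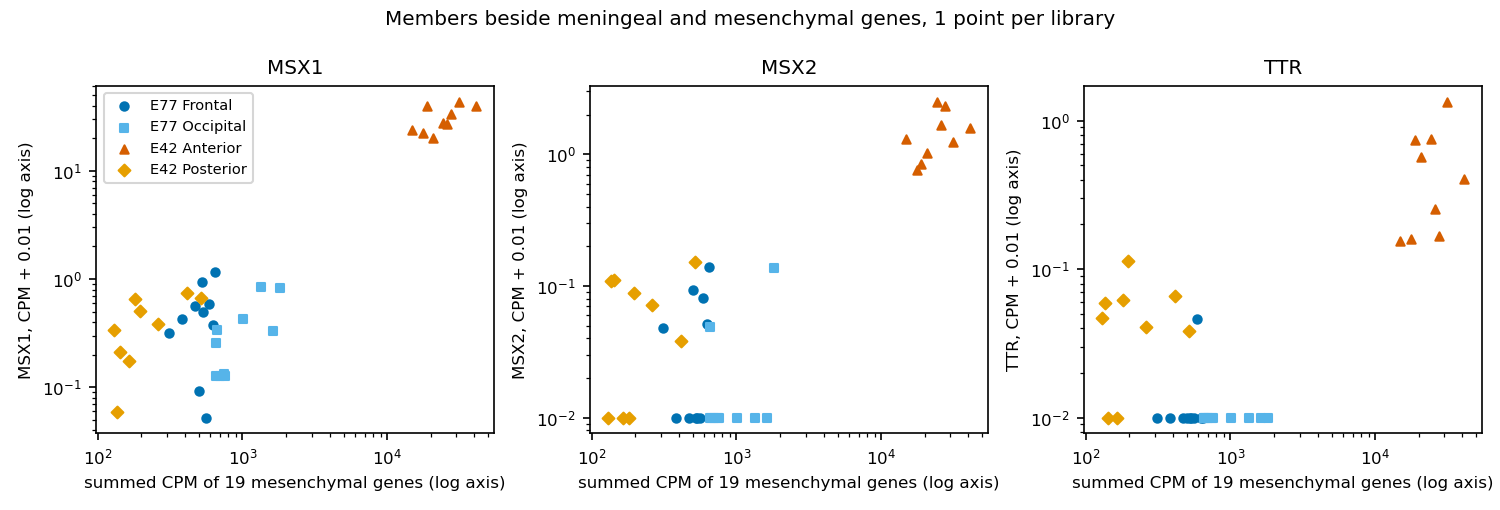
MSX1, MSX2 and TTR (CPM + 0.01, log axis) against the summed CPM of 19 meningeal and mesenchymal genes (log axis), 1 point per library, 38 in all. The 9 E42 Anterior libraries lie apart on both axes, at 14834 CPM or more of the mesenchymal sum, and the libraries of the other series lie at 1821 CPM or less.

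Other gene lists gave a mixed picture at E42, where 25.1% of tested genes were called higher and 30.3% lower in E42 Anterior than in E42 Posterior. Of 19 tested hem and roof plate genes 10 were higher and 6 lower in E42 Anterior. BMP4 (21.8 CPM in E42 Anterior and 0.410 CPM in E42 Posterior, 5.58 ± 0.23), the WNT receptor gene FZD10 (6.00 and 0.104 CPM, 5.70 ± 0.37) and ZIC4 (75.8 and 3.34 CPM, 4.50 ± 0.12) were higher. RSPO3 (-3.02), WNT3A (-2.09) and WNT8B (-1.72 on the log2 scale) were lower there. Of 22 tested choroid plexus genes 13 were higher and 4 lower in E42 Anterior, led by SLC13A4, a sulfate transporter gene also found in meninges (5.72 CPM in E42 Anterior and 0.0911 CPM in E42 Posterior, 5.96 ± 0.54). WFIKKN2, a protease inhibitor gene (22.7 and 0.128 CPM, 5.33 ± 0.32), and SOSTDC1, a secreted BMP and WNT antagonist (1.33 and 0.0290 CPM, 5.01 ± 0.50), followed. Genes of endothelial cells were higher in E42 Anterior in 5 of 6 tested cases and lower in 0.

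OTX2 is also expressed in the diencephalon, midbrain and eye, so genes of those fields were examined beside it. Of 12 tested diencephalon and midbrain genes 6 were higher and 3 lower in E42 Anterior than in E42 Posterior, and of 9 tested retina and pigment epithelium genes 4 were higher and 4 lower. Of all tested genes 25.1% were called higher there and 30.3% lower. SIX3, a transcription factor of the anterior forebrain and eye, had 0.112 CPM in E77 Frontal, 0.00307 in E77 Occipital, 2.95 in E42 Anterior and 0.124 in E42 Posterior. The photoreceptor gene CRX had 0 counts in all 38 libraries, the midbrain gene EN1 at most 14 counts and the pigment gene TYR at most 23. Their part in the OTX2 level was not tested.

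At E77, OTX2 was the member that divided the regions. Over all days 1 of the 6 members was higher in E77 Frontal than in E77 Occipital (against 16.3% of tested genes) and 0 were lower (against 13.8%), and for TTR and CLIC6 no p could be fitted because of groups at 0. OTX2 had 198 counts in E77 Frontal and 5 in E77 Occipital, at 0.831 CPM and 0.0198 CPM with phases weighted equally (5.07 ± 0.41, adjusted p = 2.64e-10, edgeR), and the libraries did not overlap. At an unadjusted p under 0.05, 0 members were lower. MSX1 (0.473 CPM in E77 Frontal and 0.317 CPM in E77 Occipital, 0.57 ± 0.33, adjusted p = 0.206, edgeR) did not pass. Neither did LMX1A (adjusted p = 0.408, edgeR), whose fitted log2 value of 0.70 was positive although its mean was 0.119 CPM in E77 Frontal and 0.146 CPM in E77 Occipital. MSX2 (adjusted p = 0.321, edgeR) did not pass either.

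In the stem phase 2 members were called between the E77 regions, where 22.7% of tested genes were. OTX2 was at 1.43 CPM in E77 Frontal and 0.0373 CPM in E77 Occipital (5.07 ± 0.59, adjusted p = 4.51e-07, edgeR). CLIC6 had 22 counts in E77 Frontal and 0 in E77 Occipital (7.99-fold higher in E77 Frontal at a floor of 3 counts, adjusted p = 0.0084, edgeR). Without day 1 of E77 Frontal its adjusted p was 0.108 (edgeR). In the terminal phase OTX2 alone was called, where 13.6% of tested genes were (0.341 CPM in E77 Frontal and 0.00902 CPM in E77 Occipital, 4.71 ± 0.78, adjusted p = 8.39e-05, edgeR). With limma on log2(RPKM + 1), a scale that shrinks low values, that call was lost (0.14, adjusted p = 0.306). Among the other 19 hem genes 5 were higher and 3 lower in E77 Frontal, and among 22 choroid plexus genes 10 were higher and 2 lower. Of all tested genes 16.3% were called higher in E77 Frontal and 13.8% lower over all days. The microglial gene CSF1R had at most 12 counts in any library. For the mesenchymal list 7 of 19 were higher and 1 lower in E77 Frontal, COL1A1 by 3.84 on the log2 scale.

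**Figure D4:**
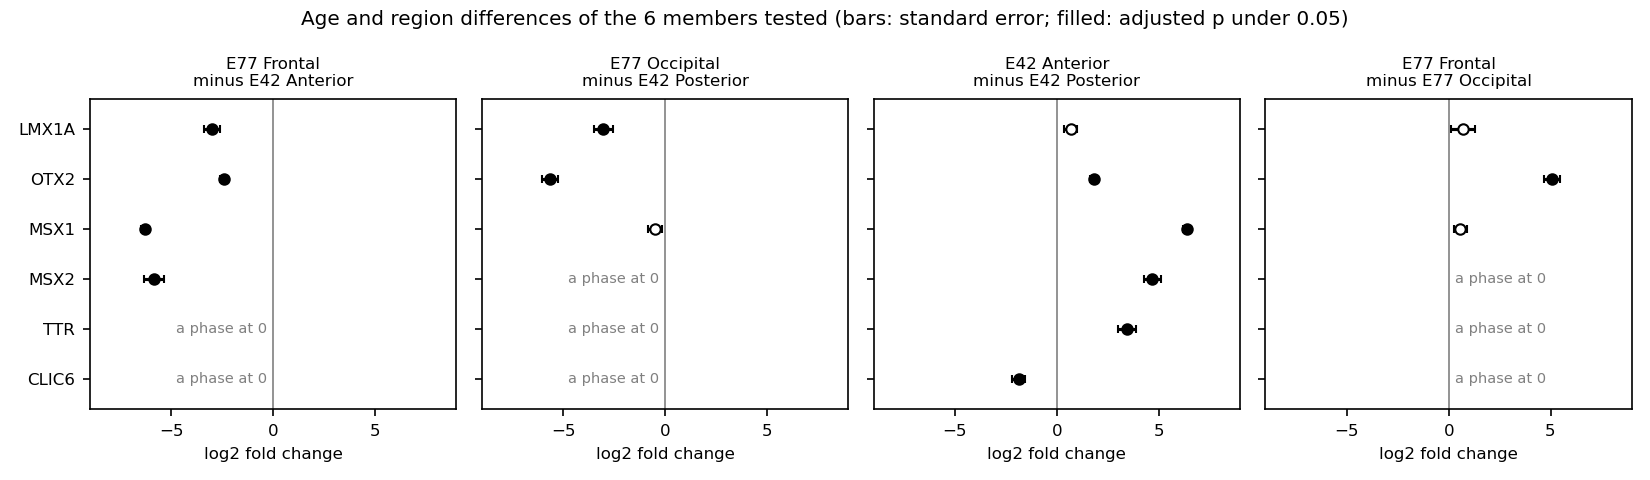
Log2 fold changes over all days (horizontal axis) for the 6 tested members in 4 comparisons, with bars for the SE and filled points for an adjusted p under 0.05. Where a phase of a series had 0 counts no fold change is drawn. Points left of 0 in the 2 age comparisons are lower at E77, and in the last panel OTX2 is the filled point, at 5.07.

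Between the stem and terminal phases 3 of 6 members were called in E77 Frontal, 1 in E77 Occipital, 1 in E42 Anterior and 1 in E42 Posterior, where 43.2%, 41.2%, 34.1% and 39.4% of tested genes were called in the same order of series.

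MSX1 was the member that changed in most series, rising at E77 and falling in E42 Posterior. In E77 Frontal it had 0.422, 0.548, 0.573 and 1.16 CPM in the terminal phase and 0.0826, 0.0425 and 0.370 CPM in the stem phase (2.02 ± 0.53, adjusted p = 0.00282, edgeR), without overlap. In E77 Occipital it had 0.420, 0.828, 0.325 and 0.825 CPM in the terminal phase and 0.117, 0.117 and 0.328 CPM in the stem phase (1.66 ± 0.51, adjusted p = 0.0102, edgeR), with 1 stem library above the lowest terminal one. That call was lost without day 1 or day 3 of the series (adjusted p up to 0.0606). In E42 Posterior it had 0.202, 0.0491 and 0.167 CPM in the terminal phase, from 12 counts, and 0.728, 0.653 and 0.371 CPM in the stem phase (-1.96 ± 0.56, adjusted p = 0.00575, edgeR), without overlap.

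In E42 Anterior MSX1 had 22.5, 26.8 and 33.7 CPM in the terminal phase and 39.6, 43.3 and 39.7 CPM in the stem phase, without overlap, but did not pass (-0.56 ± 0.31, adjusted p = 0.168, edgeR). It passed when only the libraries compared were fitted (adjusted p = 0.0297, edgeR) and with limma on log2(RPKM + 1) (adjusted p = 0.00583). The change of MSX1 was more positive at E77 than at E42, by 3.10 ± 0.49 on the log2 scale (adjusted p = 6.36e-05, edgeR). The mesenchymal sum averaged 520 ± 120 CPM in the terminal and 564 ± 63.9 CPM in the stem phase of E77 Frontal, and 1449 ± 350 CPM in the terminal and 672 ± 19.8 CPM in the stem phase of E77 Occipital. As said above, most of the sum at E77 came from PDGFRA, which oligodendrocyte precursors also use. In E42 Posterior, where MSX1 fell, the sum averaged 148 ± 14.6 CPM in the terminal and 399 ± 130 CPM in the stem phase, and COL1A1 (-3.69), COL3A1 (-3.33) and COL1A2 (-3.01 on the log2 scale) fell too. Its part in the MSX1 change was not tested.

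Genes upstream and downstream of BMP signalling were read beside MSX1. BMP4 was higher in the terminal than in the stem phase of both E77 series (5.04 against 0.344 CPM in E77 Frontal, 3.86 ± 0.66, and 15.8 against 0.315 CPM in E77 Occipital, 5.62 ± 0.67). GDF7, a BMP family ligand of the roof plate, was higher in the terminal phase of E77 Frontal (7.84 against 1.73 CPM in the stem phase, 2.18 ± 0.69), of E77 Occipital (13.8 against 1.24 CPM, 3.46 ± 0.73), of E42 Anterior (18.3 against 0.557 CPM, 5.03 ± 0.81) and of E42 Posterior (2.00 against 0.287 CPM, 2.81 ± 0.86). Among 9 BMP target genes, comparing terminal with stem, 4 rose and 0 fell in E77 Frontal, and 1 rose and 1 fell in E77 Occipital. In E42 Anterior 5 rose and 2 fell, and in E42 Posterior 2 rose and 1 fell. Of all tested genes 43.2%, 41.2%, 34.1% and 39.4% were called in either direction, in the same order of series. ID4, an inhibitor of neuronal differentiation factors, rose in both E77 series (393 against 128 CPM in E77 Frontal, 1.62 ± 0.22, and 531 against 262 CPM in E77 Occipital, 1.02 ± 0.21, terminal before stem). Levels of the other listed BMP target genes, among them the 1 that fell in E77 Occipital, are not given here. The part of BMP signalling in the MSX1 change was not tested.

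OTX2 fell in E77 Frontal as the cells differentiated. It had 0.464, 0.110, 0.501 and 0.290 CPM in the terminal phase and 1.78, 1.49 and 1.03 CPM in the stem phase (-2.07 ± 0.39, adjusted p = 7.77e-05, edgeR), and the transition libraries lay between, at 0.614, 0.903 and 0.648 CPM. In E42 Anterior it had 4.08, 3.68 and 4.31 CPM in the terminal phase and 3.77, 2.69 and 3.33 CPM in the stem phase (0.30 ± 0.34, adjusted p = 0.534, edgeR). In E42 Posterior it had 1.44, 1.28 and 0.600 CPM in the terminal phase and 1.32, 1.31 and 1.02 CPM in the stem phase (-0.14 ± 0.38, adjusted p = 0.796, edgeR). The change of OTX2 was more negative at E77 than at E42 (-1.97 ± 0.70, adjusted p = 0.0441, edgeR). That difference is averaged over a series with 4 counts in both phases, E77 Occipital, and the call was lost in 18 of 26 fits that left out single libraries (adjusted p 0.0207 to 0.296). It was also lost without the filter (0.0648), with only the libraries compared (0.0602), without day 1 (0.107), without day 20 (0.102) and in Occipital and Posterior alone (-1.58, adjusted p = 0.478).

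Among the choroid plexus products, TTR fell in E42 Anterior and CLIC6 in E77 Frontal. TTR had 0.149, 0.244 and 0.157 CPM in the terminal phase of E42 Anterior (23 counts) and 0.735, 1.33 and 0.393 CPM in its stem phase (80 counts; -2.10 ± 0.59, adjusted p = 0.00922, edgeR), without overlap. The adjusted p was 0.0733 without day 3 of the series and 0.0504 with DESeq2. CLIC6 had 0 counts in the 4 terminal libraries of E77 Frontal and 22 in its 3 stem libraries, of which day 1 held 18. With the terminal phase set at a floor of 3 counts over the group, it was 11.2-fold lower there. The adjusted p was 0.000736 (edgeR), and 0.0219 without day 1. In E42 Posterior, where CLIC6 was highest, it had 1.31, 1.03 and 0.934 CPM in the terminal phase and 1.43, 1.08 and 1.05 CPM in the stem phase (-0.12 ± 0.57, adjusted p = 0.893, edgeR). Of the 22 other choroid plexus genes tested in E42 Anterior 7 rose and 5 fell, where 34.1% of tested genes were called in either direction. WFIKKN2 was at 62.8 ± 18.7 CPM in the terminal and 0.546 ± 0.453 CPM in the stem phase (6.82 ± 0.51, adjusted p = 2.05e-10, edgeR), and CLDN2, a tight junction gene, at 3.07 ± 0.99 and 0.0202 ± 0.0175 CPM (6.96 ± 1.91, adjusted p = 0.00628, edgeR). SULF1, a heparan sulfate sulfatase gene, fell as TTR did (16.2 CPM in the terminal and 67.9 CPM in the stem phase, -2.06 ± 0.50, adjusted p = 0.00202, edgeR).

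In the first days without FGF2 the calls rested on single days. Between stem and transition 2 members were called in E77 Frontal (against 10.9% of tested genes), 1 in E77 Occipital (14.7%), 0 in E42 Anterior (17.3%) and 0 in E42 Posterior (10.5%) by edgeR. At an unadjusted p under 0.05, 2 members passed in E42 Anterior, LMX1A and MSX1, and 0 in E42 Posterior, and with DESeq2 MSX1 passed in E42 Anterior (adjusted p = 0.0359). In E77 Frontal MSX1 had 0.491, 0.938 and 0.305 CPM in the transition (1.79 ± 0.57 over stem, adjusted p = 0.0398, edgeR) and CLIC6 had 1 count in the transition against 22 in the stem phase (-4.20 ± 1.17, adjusted p = 0.0241, edgeR). In E77 Occipital LMX1A had 1 count in the transition and 27 in the stem phase, of which 25 came from day 1 (-4.37 ± 1.51, adjusted p = 0.0475, edgeR). Without day 1 in the stem phase of all series these 3 calls were lost, with adjusted p-values of 0.209, 0.362 and 0.68. MSX1 and CLIC6 in E77 Frontal were also lost without day 7 (0.271 and 0.0997), MSX1 without day 3 (0.166), CLIC6 without day 8 (0.0989), and LMX1A in E77 Occipital without day 6, 7 or 8 (0.0706 to 0.161).

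LMX1A in the transition of E42 Anterior lay near the threshold. It had 1.69, 3.17 and 0.600 CPM in the transition and 0.830, 0.212 and 0.393 CPM in the stem phase (1.93 ± 0.77, adjusted p = 0.082, edgeR), so the groups overlapped through day 8. Without day 1 of the stem phase the log2 fold change was 2.56 and the adjusted p 0.0113. In the terminal phase of E77 Occipital LMX1A had 8 counts, and 27 in the stem phase (-2.26 ± 1.02, adjusted p = 0.076, edgeR). Without day 1 the fitted value turned to 0.82 (adjusted p = 0.622).

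The change from stem to terminal differed between the ages for 2 of 6 members, MSX1 and OTX2, against 19.4% of tested genes. Between E42 Anterior and E42 Posterior it differed for 0 members (against 5.44%), and between E77 Frontal and E77 Occipital for 0 (against 1.52%) by edgeR. At an unadjusted p under 0.05 the E42 comparison had 1, MSX1, and the E77 comparison 0. In the E42 comparison MSX1 had a difference of 1.39 ± 0.65 (adjusted p = 0.25, edgeR). That value rests on 12 counts in the terminal phase of E42 Posterior and turned to -0.15 with limma on log2(RPKM + 1) (adjusted p = 0.736).

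Genes most like each member were found by the Pearson correlation of log2 CPM over the 38 libraries, which share 4 cultures, days and depth. For MSX1 they were NUPR1 (r = 0.964), a stress response gene, and the mesenchymal transcription factors FOXF2 (0.957) and TBX15 (0.957). FOXF2 averaged 0.0631 CPM in E77 Frontal, 0.0844 in E77 Occipital, 9.18 in E42 Anterior and 0.0902 in E42 Posterior. Within the 9 E42 Anterior libraries the r of MSX1 was 0.894 with NUPR1, 0.922 with FOXF2 and 0.737 with TBX15. For MSX2 the nearest genes were ADGRA2 (0.958), a receptor of vascular cells, the peptidase gene ANPEP (0.953) and ALX4 (0.952). For TTR they were PHLDB2 (0.930), the protease gene TLL1 (0.928) and the collagen-binding integrin gene ITGA11 (0.926). ITGA11 averaged 0.278 CPM in E77 Frontal, 0.0747 in E77 Occipital, 316 in E42 Anterior and 1.92 in E42 Posterior, so these values mostly separate E42 Anterior from the rest.

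OTX2, CLIC6 and LMX1A had neighbours of other patterns. For OTX2 they included the desmosome gene DSP (r = 0.905) and LINGO2 (0.896). DSP averaged 8.11 CPM in E77 Frontal, 1.88 in E77 Occipital, 32.8 in E42 Anterior and 18.3 in E42 Posterior. Within series the r of OTX2 with DSP was 0.189 in E77 Frontal, 0.233 in E77 Occipital, -0.0347 in E42 Anterior and 0.283 in E42 Posterior, lower than over all libraries. For CLIC6 they were the ligand gene WNT7B (0.904), RSPO3 (0.896) and PATE2 (0.878). WNT7B averaged 1.24 CPM in E77 Frontal, 0.649 in E77 Occipital, 2.67 in E42 Anterior and 13.1 in E42 Posterior. For LMX1A they were ZNF536 (0.819), MAF (0.811) and GEMIN4 (0.808), lower values than for the other members.

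Among the members themselves, MSX1 and MSX2 were most alike over the 38 libraries (r = 0.914), followed by MSX1 with TTR (0.873) and MSX2 with TTR (0.861). CLIC6 was least like MSX1 (0.182). Within E42 Anterior the order was another: MSX1 and MSX2 had an r of 0.175, LMX1A and OTX2 of 0.888, and OTX2 and TTR of -0.709 (9 libraries each). LMX1A and OTX2 both reached their highest level on day 7 of that series.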

How the data were processed

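Per the labels, total RNA came from 2 wells per condition and libraries were strand-specific. The authors deposited read counts per gene as whole numbers, and RPKM values, for 34619 genes. Each deposited RPKM was the count divided by the library total and by 1 fixed length per gene. STAR and featureCounts are named, with no version, per the submitters' processing notes. Build, annotation and counting strand are not given in the sources used, so no coordinates or sequences are printed.

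The 12 groups were series by phase, with days as replicates. Counts were tested with edgeR 4.0.16 in R 4.3.3, after filterByExpr (minimum count 10) and TMM scaling, in a robust quasi-likelihood model of the 38 libraries. The model for phases held group means alone (26 residual degrees of freedom). For region and age it also held the day as a block (19). The labels give that day, so equal numbers pair libraries, and 44 of 55 such pairs deviated together from their groups (r over 0.1, median 0.224). "All days" is the mean of 3 phases with equal weight. No fold change was kept where a group had 0 counts, and no p where the SE then passed 10. No pair of libraries agreed within counting noise (lowest ratio of spread to noise 9.51 over 703 pairs).

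The members, comparisons and gene lists were chosen with earlier results of these data known. Other genes were named by rule: the 3 genes most like each member (mean of at least 1 CPM), and up to 3 called genes of a list with the largest changes. Genes named to check a cell type or to show an order of levels were picked after their values were seen. KCNE2, ECRG4 and CD24 were not used here, and some genes that the rules name are not reported here. Alternatives were DESeq2 1.42.0 (its size factors, and its Wald test), limma 3.58.1 on log2(RPKM + 1) and log2(RPKM + 0.1), no filter, fewer libraries and no block. The fits were tested on simulated data for some of the comparisons, with changes planted only in genes above 1 CPM and no day differences. That test does not cover members of lower level or groups at 0 counts.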

Additional observations from a re-analysis of the deposited data

Results flagged for a closer look

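In 4 groups of 4 terminal libraries, 1 library stood apart from the other 3. In each of these groups the other 3 libraries had 0 counts, so the rule flags any nonzero library there, even at 1 count. All 4 values rest on 1 to 5 counts, and no chance rate can be given for them. OTX2 was at 0.0361 CPM (1 count) on day 17 of E77 Occipital, with the other terminal libraries at 0. MSX2 was at 0.127 CPM (4 counts) on day 20 of E77 Occipital, with the others at 0. TTR was at 0.0358 CPM (1 count) on day 17 of E77 Frontal, its only count at E77. FOLR1 was at 0.153 CPM (5 counts) on day 14 of E77 Occipital, its highest count in any library.

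For 2 members the change between the stem and terminal phases differed between the ages by a test of the difference itself (edgeR quasi-likelihood test, Benjamini-Hochberg adjustment). For MSX1 the change was higher at E77 than at E42 by 3.10 on the log2 scale (adjusted p = 6.36e-05), with rises in both E77 series and a fall in E42 Posterior. For OTX2 it was lower at E77 by a log2 value of -1.97 (adjusted p = 0.0441), a call lost in 18 of 26 fits that left out single libraries.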

How the results depend on the processing

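Levels, as a percent of the sum of the 4 series means, kept within 1 SD in 56 of 56 cases. The settings were CPM on raw library totals and RPKM, which give the same percentages because RPKM uses 1 fixed length per gene. They differ from the main scale mainly by TMM factors of 0.899 to 1.10. A larger move was hardly possible, so this count says little about robustness. Of the members' log2 fold changes under other settings, 402 kept direction and side of the threshold, 20 lost the call, 11 gained it and 2 turned sign; with single libraries left out these were 626, 35, 6 and 4. Few counts limit most members.

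Turned signs, none of them called: MSX1 for the E42 Anterior minus E42 Posterior change was -0.15 with limma on log2(RPKM + 1), and LMX1A for terminal minus stem in E77 Occipital was 0.82 without day 1 (-2.87 to 0.82 with single libraries left out). With single libraries left out, LMX1A between the E42 regions in the stem phase ranged from -0.78 to 0.35, and terminal minus stem in E42 Posterior from -0.47 to 0.16 for OTX2 and from -0.34 to 0.036 for CLIC6. The causes were not tested.

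Without the replicate block, which pairs libraries by day, genes called between the E77 regions numbered 2954 in the stem phase (4720 with it) and 1640 in the terminal phase (2828), and MSX2 between E77 Occipital and E42 Posterior had an adjusted p of 0.0801.

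Counts of genes called also moved. For the E77 Frontal minus E77 Occipital change (317) they were 201 without the filter, 587 with DESeq2, 150 with only the libraries compared, 148 without day 1, 145 without day 20, and 148 to 500 with single libraries left out. For transition minus stem, with only the libraries compared they were 917 in E77 Frontal, 975 in E77 Occipital, 0 in E42 Anterior (edgeR; 5679 at an unadjusted p under 0.05; 4103 with DESeq2 on all libraries) and 1020 in E42 Posterior. Without day 1 they were 982, 1706, 2286 and 566 in that order, and with single libraries left out 621 to 2390, 1279 to 3376, 1745 to 4725 and 306 to 2855. Between the E42 regions in the stem phase, 4781 were called with only the libraries compared. The E77 minus E42 change had 2146 calls in Frontal and Anterior alone and 1022 in Occipital and Posterior alone. With single libraries left out, the E42 region change had 719 to 1488 and the E77 regions in the stem phase 3072 to 4763.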

Other observations

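Motile cilia are carried by choroid plexus and ependymal cells. Of 15 tested genes of a multiciliation list 13 were higher and 0 lower in E77 Frontal than in E77 Occipital (median log2 1.39, against -0.01 over all genes). Over all tested genes 16.3% were called higher there. The list holds TUBA1A, a tubulin gene not limited to cilia, and TP73, which also stands on the Cajal-Retzius list. FOXJ1, the transcription factor of motile cilia, averaged 109 CPM in E77 Frontal and 42.4 CPM in E77 Occipital (1.39 on the log2 scale), and 42.5 CPM in E42 Anterior and 26.3 CPM in E42 Posterior. Of the Cajal-Retzius genes, a neuron type that the hem produces, 6 of 7 tested were higher and 0 lower in E77 Frontal than in E77 Occipital (median log2 1.81, against -0.01 over all genes). At E42 5 of 7 were higher and 0 lower in E42 Anterior than in E42 Posterior (median 1.02, against -0.06), where 25.1% of tested genes were called higher.

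WNT target genes showed no shared direction with age: 4 of 11 were higher and 6 lower at E77 (median log2 -0.31, against -0.03 over all genes). Between the ages 15018 of 20794 tested genes were called in either direction, and 38.4% were called lower at E77. Cortical progenitor genes were lower in E42 Anterior than in E42 Posterior in 9 of 12 cases and higher in 1 (median -0.47, against -0.06). Of all tested genes 30.3% were called lower there and 25.1% higher. The 5 tested genes of the ependymal and glial list were AQP4, S100B, GFAP, ALDH1L1 and SLC1A3, which astrocytes also use. All 5 were higher at E77 than at E42 (median 1.62, against -0.03). The listed TMEM212 did not pass the filter, so the result does not single out ependymal cells.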
